A study of Mus musculus with 2 samples.

Results

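The genes described here are 8 members of PPAR-alpha signalling and fatty acid oxidation: Ppara, Ppargc1a, Cpt1a, Ehhadh, Cyp4a10, Cyp4a14, Acot1 and Fabp1. They were chosen by name, and all 8 were found among the 21855 gene names of the count matrix. The study prepared single-cell suspensions of mouse kidney as 1 FA library and 1 control library; both are labelled wild type. The FA library is labelled as FA-induced nephropathy, FA being folic acid, a compound given at high dose to injure the kidney tubule. The labels give no dose, time after FA, age, sex, strain or number of animals. With 1 library a group there was no replicate, so no difference below was tested, and every interval is a 95% interval that covers counting error only. The deposited values are counts of UMIs (unique molecular identifiers), and levels are given as CPM, a gene's UMIs over all UMIs of the cells named, scaled to a total of 1000000.

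PPAR-alpha, the product of Ppara, is a nuclear receptor that is activated by fatty acids and pairs with RXR on DNA direct repeats of AGGTCA spaced by a single base. Its targets carry fatty acids into mitochondria and peroxisomes, oxidise them there, or hydroxylate them at the omega end in the endoplasmic reticulum. The proximal tubule of the kidney draws most of its energy from fatty acid oxidation, and PPAR-alpha and its coactivator PGC-1alpha, encoded by Ppargc1a, are both abundant there.

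The FA library held 18997 barcodes and 84138607 UMIs, with a median of 2768 UMIs a barcode, and the control library 9681 barcodes and 63646459 UMIs, with a median of 4935. After filters and removal of likely doublets 13502 FA and 5807 control cells were kept, and 54 barcode names occurred in both libraries. Sex-linked RNA set them apart: Xist, transcribed from the inactive X chromosome, stood at 1187 CPM in the kept FA cells and at 0.227 CPM in the kept control cells, whereas the Y-linked Ddx3y, Uty, Kdm5d and Eif2s3y were listed at 0 in FA. Sex of the animals and FA therefore cannot be told apart in any difference between the libraries.

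Cell classes were named from marker genes. Proximal tubule-like cells numbered 524 in FA, which is 3.88% of its kept cells, and 2096 in control, which is 36.1%. Different clusters held the class: 511 of the FA cells lay in a single cluster led by Cyp4a14, Cyp4a31, Slc13a1 and Cyp4a10, while the control cells fell into clusters led by Slc6a19 (1188 cells), Ass1 (608 cells) and Kap (298 cells). A cluster that is nearly all of 1 library may reflect that library and not a cell type. The markers bore out the label in part. Slc34a1, the phosphate transporter of the proximal tubule, stood at 4000.0 CPM in FA and 5624 CPM in control, and Lrp2, the endocytic receptor megalin, at 1367 CPM in FA and 1166 CPM in control. Slc7a13, a transporter of the last segment of the proximal tubule, had no UMI in the FA class, against 158 CPM in control and 1026 CPM in the control cluster led by Kap. Some injury markers were also present in the FA class. Havcr1, which encodes the injury protein KIM-1, stood at 32.9 CPM in FA and was listed at 0 in control. Spp1, which encodes osteopontin, stood at 40198 CPM in FA and 1076 CPM in control and made up most of the summed injury markers, while the keratin Krt8 was not higher, at 41.9 CPM in FA and 75.4 CPM in control.

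Injured tubule-like cells numbered 1782 in FA, of which 1541 lay in a cluster led by Vcam1 and 241 in one led by Ankrd1, and 106 in control, of which 95 lay in the cluster led by Ankrd1. A pair of clusters nearly all of FA kept no name. One was led by Fabp1, followed by Cda, Gsta2, 2200002D01Rik, Dbi, 1700016C15Rik and Acot1, and held 1090 FA and 5 control cells. The other was led by Spp1, Fgg, Fgb and Fga, followed by C3 and Cyp4a10, and held 1015 FA and 5 control cells. Naming was uneven. The Spp1-led cluster scored 0.923 for proximal tubule, as a mean log2 ratio of markers over all other cells, with 12 markers detected. It stayed unnamed because its leading genes included those of another class. The control cluster led by Ass1 was named proximal tubule-like at -0.095 with 8 markers. Slc34a1 stood at 2412 CPM in the Spp1-led and 1154 CPM in the Ass1-led cluster. Malat1, a long RNA that stays in the nucleus, differed between these populations. It made up 157308 CPM of the proximal tubule-like and 179733 CPM of the injured tubule-like UMIs of FA, against 36016 CPM in proximal tubule-like and 41477 CPM in injured tubule-like cells of control. The unnamed FA clusters held far less, with 8530 CPM in the one led by Fabp1 and 9934 CPM in the one led by Spp1. In T cell-like cells Malat1 stood at 26781 CPM in FA and 33713 CPM in control. The part of nuclear RNA content in the results below was not tested, and values within populations of like Malat1 content are given where they can be had.

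Cyp4a10, at chr4:115518264-115533649 on the plus strand, and Cyp4a14, at chr4:115486200-115496142 on the minus strand, are neighbours on GRCm38. Ppara lies on chromosome 15, Ppargc1a on 5, Cpt1a on 19, Ehhadh on 16, Acot1 on 12 and Fabp1 on 6. The promoters of 6 of the 8 members, as the 250 bases before the RefSeq start on GRCm38.p6, were searched on both strands for the binding motif of PPAR-alpha with RXR. No promoter was available for Cyp4a10 and Cyp4a14, so the omega hydroxylases are not covered. The 6 were searched because the members include genes that differed together between the libraries. The search letters were AGGNCANAGGNCA for the direct repeat, whose reverse complement is TGNCCTNTGNCCT, and AGGTCA for a single unit, whose reverse complement is TGACCT. A single unit may lie within a repeat. The Fabp1 promoter, at chr6:71199629-71199878 on the plus strand, held the repeat, with a further single unit near the start. The Cpt1a promoter, at chr19:3323051-3323300 on the plus strand, held 1 single unit. The Acot1 promoter, at chr12:84009252-84009501 on the plus strand, held neither, like those of Ppara, Ppargc1a and Ehhadh. Capitals mark the matches in these sequences, written 5′ to 3′.
Fabp1: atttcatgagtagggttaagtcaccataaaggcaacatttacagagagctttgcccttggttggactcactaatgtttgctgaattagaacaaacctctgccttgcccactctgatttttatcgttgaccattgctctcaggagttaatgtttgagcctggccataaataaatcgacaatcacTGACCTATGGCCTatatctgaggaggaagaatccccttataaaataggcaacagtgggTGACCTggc
Cpt1a: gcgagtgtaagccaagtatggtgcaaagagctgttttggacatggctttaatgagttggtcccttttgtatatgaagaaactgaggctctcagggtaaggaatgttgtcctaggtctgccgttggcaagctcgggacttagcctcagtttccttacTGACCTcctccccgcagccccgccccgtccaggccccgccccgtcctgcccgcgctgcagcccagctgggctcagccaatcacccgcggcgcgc
Acot1: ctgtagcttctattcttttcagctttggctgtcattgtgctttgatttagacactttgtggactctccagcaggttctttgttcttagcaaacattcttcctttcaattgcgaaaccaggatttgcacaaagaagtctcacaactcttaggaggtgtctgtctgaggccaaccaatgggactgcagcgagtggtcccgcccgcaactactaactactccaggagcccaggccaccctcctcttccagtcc
The repeat in Fabp1 reads TGACCTATGGCCT and starts 67 bases before the gene's start. It matches the looser search letters but is not an exact repeat of AGGTCA, which none of the 6 promoters held. Of 32851 mouse promoters of the same length, 0.338% held AGGNCANAGGNCA and 14.02% held AGGTCA on either strand. A match describes these letters and does not show binding, and a window without a match says nothing about the factor elsewhere.

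Over all kept cells, levels of the receptor, the coactivator and Ehhadh were lower in FA and levels of the omega hydroxylases, Acot1 and Fabp1 were higher. Ppara had 697 UMIs in FA and 1508 in control, or 12.4 CPM in FA and 38.04 CPM in control, a ratio of 0.327 (0.298 to 0.358). Ppargc1a stood at 14.9 CPM in FA and 77.1 CPM in control, a ratio of 0.193 (0.178 to 0.208). Ehhadh, which encodes the peroxisomal bifunctional enzyme of beta oxidation, stood at 14.9 CPM in FA and 33.3 CPM in control, a ratio of 0.447 (0.409 to 0.487). All of these intervals lie below 1. Cpt1a, the carnitine palmitoyltransferase that admits long-chain fatty acids to mitochondria, stood at 64.5 CPM in FA and 78.1 CPM in control, a ratio of 0.827 (0.788 to 0.868). When each cell was weighed the same its log2 ratio was 0.09, against -0.27 as summed, so its direction depended on the weighing. The members that were higher in FA spanned a wide range. Cyp4a10, a cytochrome P450 that hydroxylates fatty acids at the omega carbon, stood at 42.6 CPM in FA and 25.3 CPM in control, a ratio of 1.68 (1.56 to 1.81). Its paralog Cyp4a14 stood at 29.0 CPM in FA and 6.28 CPM in control, a ratio of 4.61 (4.03 to 5.29). Acot1, a cytosolic acyl-CoA thioesterase, had a ratio of 3.10 (2.82 to 3.40). Fabp1, the liver-type fatty acid binding protein, had 1366 UMIs in FA and 121 in control and the widest ratio of the set, 7.98 (6.63 to 9.70). At a call of 1.5-fold with at least 20 UMIs over both sums, which all 8 members met, 4 members were higher and 3 lower. Of the 18068 genes that met the minimum and had a UMI in each library, 19.9% were higher and 29.8% lower by the same rule. In sums over a whole library, fewer cells of a type and less RNA per cell cannot be told apart.

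The cells that held these UMIs differed between the libraries. In control, proximal tubule-like cells held 90.9% of the Ppara UMIs, 91.3% of those of Ehhadh, 97.5% of Cyp4a10, 98.0% of Cyp4a14 and 95.04% of Fabp1. In FA the same class held 23.5% of the Ppara UMIs, 14.5% of those of Ehhadh, 32.8% of Cyp4a10, 51.4% of Cyp4a14 and 13.7% of Fabp1. The share of the class among cells was also lower in FA, and both shares depend on the uneven naming given above. The unnamed cluster led by Fabp1 held 53.6% of the FA UMIs of Fabp1, 44.3% of those of Acot1 and 36.7% of those of Ehhadh. The unnamed cluster led by Spp1 held 34.8% of the FA UMIs of Cyp4a10 and 21.0% of those of Cyp4a14. Cpt1a and Acot1 were the members least tied to the proximal tubule in FA, where that class held 9.45% of the Cpt1a and 4.66% of the Acot1 UMIs, against 59.3% and 56.1% in control.

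**Figure D1:**
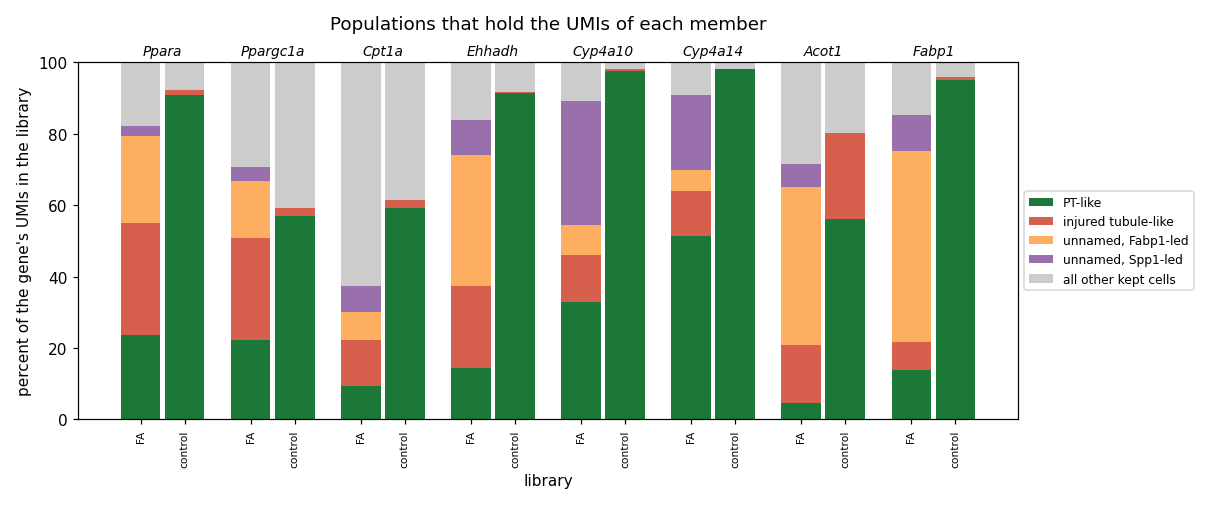
Percent of each member's UMIs per library (y axis) that came from proximal tubule-like cells, injured tubule-like cells, the unnamed clusters led by Fabp1 and by Spp1, and all other kept cells, with FA left of control for each gene. Proximal tubule-like cells held 98.0% of the control UMIs of Cyp4a14 and 51.4% of those of FA, and the unnamed cluster led by Fabp1 held 53.6% of the FA UMIs of Fabp1.

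Within proximal tubule-like cells the receptor and coactivator were near their control levels, while the omega hydroxylases and Fabp1 were many times higher in FA. Of the 8 members, 5 were higher and 0 lower by 1.5-fold or more. Of the 12475 genes measured there, 32.3% were higher and 23.7% lower. The median log2 ratio was 1.10 over the members and 0.16 over all measured genes. The FA class itself was not stable: in 3 of the alternative settings the rebuilt clusters left 3 to 12 FA cells under this name, and no ratio was computed.

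Ppara had 164 UMIs in FA and 1371 in control, which gave 81.8 CPM (69.7 to 95.3) in FA and 83.3 CPM (78.9 to 87.8) in control, a ratio of 0.982 (0.830 to 1.15). Ppargc1a stood at 91.7 CPM in FA and 106 CPM in control, a ratio of 0.868 (0.742 to 1.01). Both intervals include 1 and end well short of the ratios seen over the whole library. The near equality depended on how the class was drawn. With cells gated on at least 3 proximal tubule markers, which took in 2430 FA cells, the log2 ratio was -0.59 for Ppara and -0.97 for Ppargc1a. With the unnamed cluster led by Spp1 added to the class, a choice made after the values were seen, it was -0.79 for Ppara and -0.89 for Ppargc1a.

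Cpt1a stood at 170.5 CPM in FA and 112 CPM in control, a ratio of 1.53 (1.36 to 1.72), so the interval reaches below the limit for a call. Under the marker gate its log2 ratio was 0.18. Ehhadh stood at 60.3 CPM in FA and 73.3 CPM in control, a ratio of 0.823 (0.677 to 0.993), and was called in neither direction.

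The omega hydroxylases and Fabp1 differed most. Cyp4a10 had 783 UMIs in the 524 FA cells and 978 in the 2096 control cells, which gave 390.3 CPM (363 to 419) in FA and 59.4 CPM (55.7 to 63.2) in control, a ratio of 6.57 (5.97 to 7.22). Cyp4a14 had 835 UMIs in FA and 244 in control, which gave 416 CPM (388 to 445) in FA and 14.8 CPM (13.02 to 16.8) in control, a ratio of 28.1 (24.3 to 32.5). The level intervals of FA and control do not overlap for either gene. Fabp1 stood at 93.2 CPM (80.3 to 108) in FA and 6.99 CPM (5.77 to 8.39) in control, a ratio of 13.3 (10.5 to 17.0). Acot1 stood at 56.3 CPM in FA and 18.8 CPM in control, a ratio of 2.99 (2.39 to 3.72). Under the marker gate the log2 ratios were 2.14 for Cyp4a10, 3.69 for Cyp4a14, 2.42 for Acot1 and 4.14 for Fabp1, all in the same direction. Cyp4a10 shares 95.7% of its letters with Cyp4a31 over 2101 aligned transcript bases, so the split of reads between this pair is uncertain. Cyp4a31 itself stood at 454 CPM in FA and 34.9 CPM in control. Cyp4a14 shares 73.3% with Cyp4a10.

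**Figure D2:**
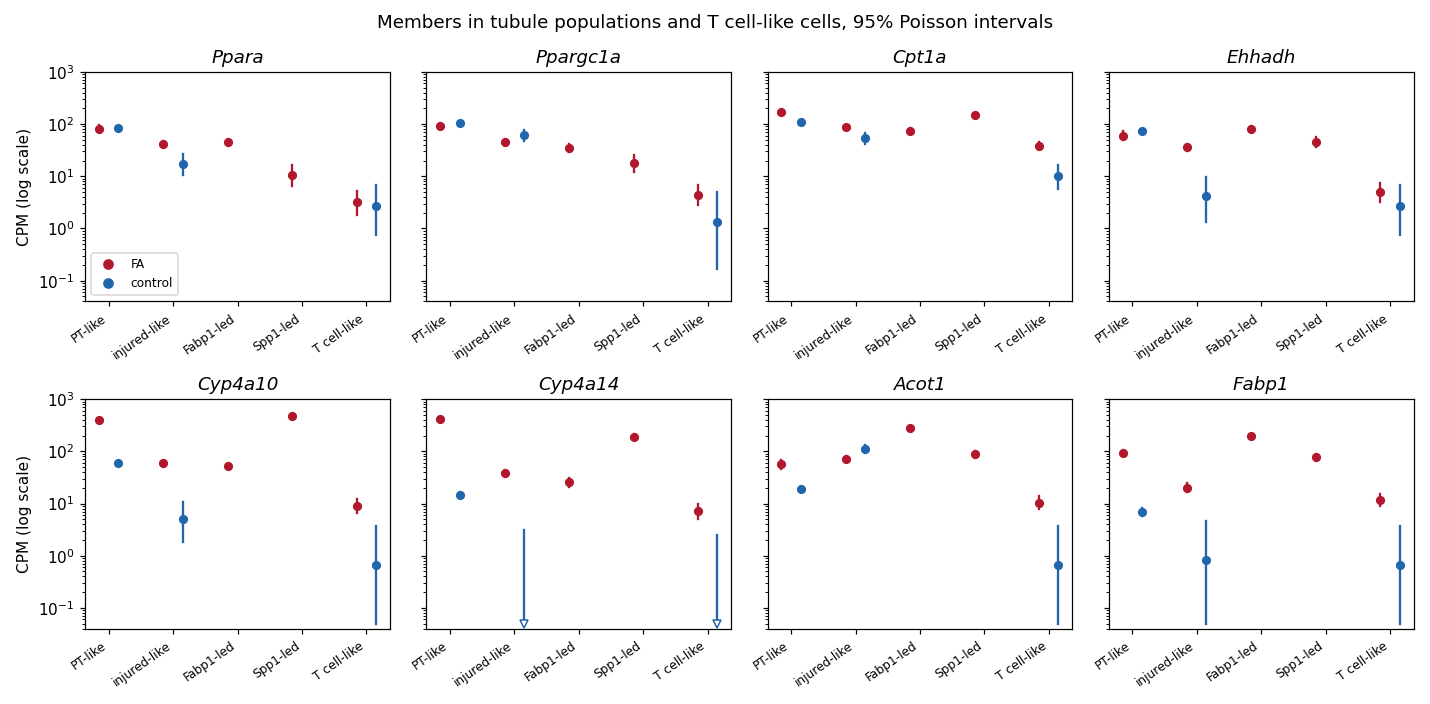
Level of each member in CPM (log scale) in proximal tubule-like and injured tubule-like cells, the unnamed clusters led by Fabp1 and by Spp1, and T cell-like cells, with FA (red) left of control (blue), 95% Poisson intervals as bars and open triangles for 0 UMIs. Ppara lies at 81.8 CPM in FA and 83.3 CPM in control proximal tubule-like cells, while Cyp4a14 lies at 416 CPM in FA and 14.8 CPM in control.

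Shares of cells with a UMI were compared as well. After each cell was thinned to 1000 UMIs, which left out 10 FA and 112 control cells of the class, a Cyp4a10 UMI was found in 29.4% (25.5 to 33.5) of FA and 4.49% (3.62 to 5.49) of control cells. Unthinned, the shares were 63.5% in FA and 16.8% in control. Cyp4a14 was found in 28.2% of thinned FA and 1.31% of thinned control cells, and Fabp1 in 6.61% of FA and 0.504% of control cells. Ppara was found in 7.004% of FA and 8.52% of control cells. T cell-like cells, which should lack Cyp4a10, had a UMI of it in 0.997% of thinned FA cells, a share far below that of FA proximal tubule-like cells. A cell with UMIs of 3 or more members was found among 7.78% of FA and 0.857% of control proximal tubule-like cells, and 32.5% of FA and 64.6% of control cells had none.

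Control proximal tubule-like cells were not uniform in these genes, and the ratio turned on which of them FA was set against. The single-cluster comparisons were added after the values were seen. Against the cluster led by Slc6a19, an amino acid transporter of the early proximal tubule, 5 members were higher and 0 lower in FA, where 29.6% of 11869 genes were higher and 19.5% lower. Cyp4a10 stood at 390.3 CPM in FA and 19.0 CPM in this control cluster, a ratio of 20.5 (17.6 to 24.1), and Cyp4a14 at 416 CPM in FA and 3.06 CPM in this cluster, a ratio of 136 (95.7 to 200.4). Acot1 had a ratio of 6.55 (4.92 to 8.74). Against the cluster led by Ass1, which encodes a urea cycle enzyme, 5 members were also higher and 0 lower, where 37.4% of 10386 genes were higher and 34.8% lower. Against the cluster led by Kap, an androgen-induced kidney gene, 2 members were higher and 1 lower, where 34.2% of 10234 genes were higher and 23.5% lower. Cyp4a10 stood at 390.3 CPM in FA and 302 CPM in this cluster, a ratio of 1.29 (1.17 to 1.43) that was not called. Cyp4a14 kept a call at 416 CPM in FA and 82.6 CPM in this cluster, a ratio of 5.04 (4.32 to 5.89). The Kap-led cluster alone held 76.1% of the control UMIs of Cyp4a10 and 83.9% of those of Cyp4a14. Ehhadh stood at 60.3 CPM in FA and 223 CPM in this cluster, a ratio of 0.271 (0.221 to 0.330), and Acot1 at 56.3 CPM in FA and 73.1 CPM in this cluster, a ratio of 0.770 (0.604 to 0.979). Fabp1 went the other way, with 187 UMIs in FA and 0 in the Kap-led cluster, so its level was at least 78.6-fold higher in FA against a floor of 3 counts over that cluster. Its control UMIs came from the clusters led by Slc6a19 (61.2%) and Ass1 (33.9%). Of the genes that mark the Kap-led cluster, Slc7a13 had no UMI in the FA class, and Kap had 2, or 0.997 CPM in FA against 5955 CPM in control. Others were present there, among them the organic anion transporter Slc22a6, at 248 CPM in FA and 156 CPM in control. Of 8 measured male-biased kidney genes 7 were lower by the 1.5-fold rule in FA than in control proximal tubule-like cells, where 23.7% of all measured genes were. The measured female-biased genes parted. Prlr was higher, at 32.4 CPM in FA and 15.7 CPM in control, and Timd2 lower, at 21.4 CPM in FA and 62.4 CPM in control. The part of sex and of tubule segment in these ratios was not tested.

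**Figure D3:**
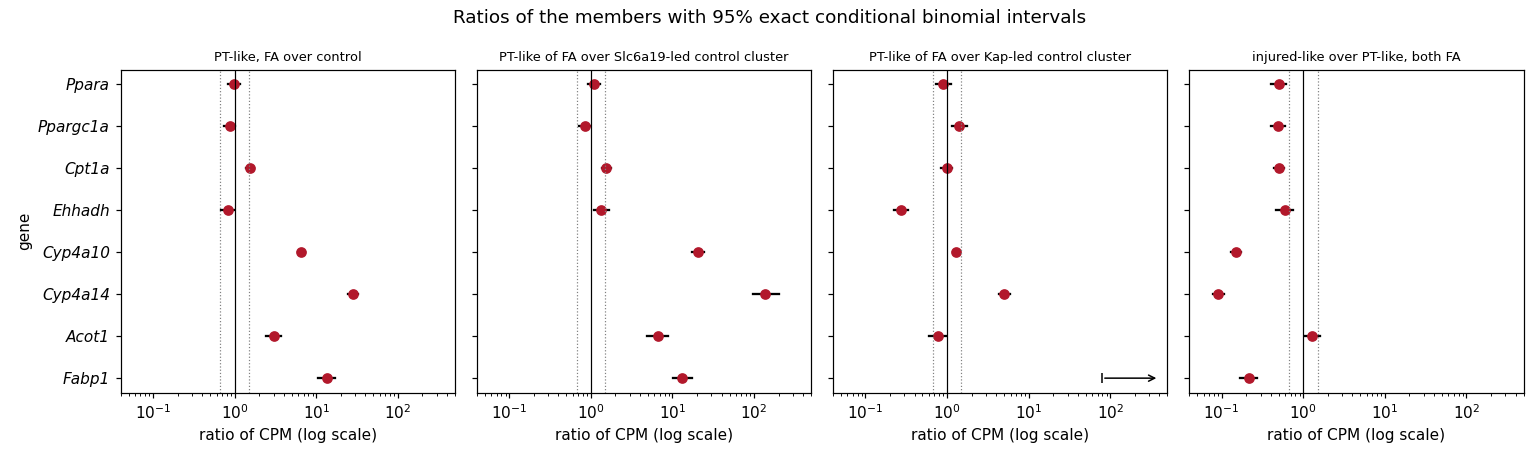
Ratio of CPM on a log axis, with 95% exact conditional binomial intervals, for each member in 4 comparisons: proximal tubule-like cells of FA over control, over the control cluster led by Slc6a19 and over the control cluster led by Kap, and injured over proximal tubule-like cells of FA; dotted lines mark 1.5-fold. The ratio of Cyp4a10 is 20.5 against the Slc6a19-led and 1.29 against the Kap-led cluster, and the arrow for Fabp1 starts at the bound of 78.6 because the Kap-led cluster had 0 UMIs.

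A further comparison, added after the values were seen, set populations low in Malat1 against each other: the unnamed FA cluster led by Spp1 and the control cluster led by Ass1. Malat1 stood at 9934 CPM in this FA cluster and 4097 CPM in this control cluster. They were not matched otherwise: mitochondrially encoded RNA took 30.8% of the UMIs in the FA and 6.26% in the control cluster, and the proximal tubule marker Miox stood at 347 CPM in the FA and 5196 CPM in the control cluster. Here 5 members, Cpt1a, Cyp4a10, Cyp4a14, Acot1 and Fabp1, were higher and 2 lower in FA, where 20.9% of 9853 genes were higher and 60.9% lower. Cyp4a10 stood at 466 CPM in FA and 4.65 CPM in control, a ratio of 100.2 (61.3 to 176). Cyp4a10 is itself among the leading genes of this FA cluster, so the choice of cluster favoured a high ratio. Fabp1 had a ratio of 6.45 (4.52 to 9.38), Acot1 of 8.60 (5.93 to 12.8) and Cpt1a of 2.09 (1.75 to 2.50). Cyp4a14 had 341 UMIs in FA and 3 in control, a ratio of 219 (74.4 to 1069). Ppara and Ppargc1a were lower, with Ppara at 10.7 CPM in FA and 104 CPM in control, a ratio of 0.103 (0.0611 to 0.163), and Ppargc1a at 17.9 CPM in FA and 123 CPM in control, a ratio of 0.146 (0.0988 to 0.210). In FA, Ppara stood at 10.7 CPM in the Spp1-led and 44.9 CPM in the Fabp1-led cluster, which were both low in Malat1. It stood at 81.8 CPM in proximal and 41.0 CPM in injured tubule-like cells, which were both high in it. These populations differ in other ways too, and the part of Malat1 content in the Ppara level was not tested. In control it stood at 74.9 CPM in the Slc6a19-led cluster and 104 CPM in the Ass1-led one.

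Within FA, injured tubule-like cells had lower levels than proximal tubule-like cells of every member but Acot1. By the 1.5-fold rule 7 members were lower and 0 higher, where 15.7% of 12155 genes were lower and 32.2% higher. Ppara stood at 41.0 CPM in injured and 81.8 CPM in proximal tubule-like cells, a ratio of 0.501 (0.407 to 0.617), and Ppargc1a at 44.7 CPM in injured and 91.7 CPM in proximal tubule-like cells, a ratio of 0.487 (0.400 to 0.594). Cpt1a had a ratio of 0.510 (0.443 to 0.588) and Ehhadh of 0.592 (0.469 to 0.750). These 4 ratios lay between 0.487 and 0.592. The omega hydroxylases were lower by more. Cyp4a10 stood at 58.7 CPM in injured and 390.3 CPM in proximal tubule-like cells, a ratio of 0.150 (0.132 to 0.172). Cyp4a14 stood at 37.8 CPM in injured and 416 CPM in proximal tubule-like cells, a ratio of 0.0908 (0.0775 to 0.106). Fabp1 stood at 20.02 CPM in injured and 93.2 CPM in proximal tubule-like cells, a ratio of 0.215 (0.168 to 0.274). Acot1 differed in direction from the other members, at 72.8 CPM in injured and 56.3 CPM in proximal tubule-like cells, a ratio of 1.29 (1.05 to 1.61), and was not called. Malat1 was high in both classes, at 179733 CPM in injured and 157308 CPM in proximal tubule-like cells of FA. All 15 measured proximal tubule transporters and enzymes without a lipid role were lower too, at a median log2 ratio of -2.49, against -1.02 for the members. These genes are also the markers that named the proximal tubule-like class, so their direction here was favoured by the naming.

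The injured clusters differed in these genes. In the Vcam1-led cluster alone 6 members were lower, where 15.2% of 11763 genes were, and Ehhadh was not called at 0.670 (0.530 to 0.850). In the Ankrd1-led cluster 7 members were lower and 0 higher, where 34.2% of 9810 genes were lower and 42.1% higher. Cyp4a10 and Cyp4a14 had 6 UMIs each there, or 7.82 CPM, and Fabp1 had 3 UMIs. Acot1 stood at 74.3 CPM in the Ankrd1-led and 72.5 CPM in the Vcam1-led cells, close to each other. The Cyp4a10 and Cyp4a14 levels in the Ankrd1-led cells were close to those in lymphocytes of FA, at 10.3 CPM for Cyp4a10 and 6.37 CPM for Cyp4a14. Cells with and without a UMI of Havcr1 or Krt20 were also compared. Among FA proximal tubule-like cells, 2 members were lower in the 52 positive than in the 472 negative cells, where 23.9% of 8495 genes were, and 0 were higher, where 9.90% were. Ppara stood at 34.3 CPM in positive and 88.0 CPM in negative cells, from 8 UMIs in the positive cells, a ratio of 0.390 (0.166 to 0.788), and the interval for Fabp1 included 1 at 0.616 (0.330 to 1.06). The other 6 members had ratios from 0.837 to 1.01. The part of free RNA in this split was not tested; Havcr1 stood at 11.8 CPM and Krt20 at 6.80 CPM in FA T cell-like cells, against 32.9 CPM and 9.47 CPM in this class. Among FA injured tubule-like cells, Acot1 stood at 90.8 CPM in the 489 positive and 57.7 CPM in the 1293 negative cells and Fabp1 at 26.7 CPM in positive and 14.4 CPM in negative cells, and both were called higher, where 9.78% of 11450 genes were. Ppargc1a stood at 32.9 CPM in positive and 54.6 CPM in negative cells and was called lower, where 15.0% were.

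Between the libraries, injured tubule-like cells could be matched only in part because different clusters held the class. Over the class, 6 members were higher and 1 lower in FA, where 16.9% of 12272 genes were higher and 39.0% lower. Cyp4a10 stood at 58.7 CPM in FA and 4.95 CPM in control, and Cyp4a14 had 202 UMIs in FA and 0 in control, which is at least 15.3-fold higher against a floor of 3 counts over the control class. Ppara stood at 41.0 CPM in FA and 17.3 CPM in control, a ratio of 2.36 (1.51 to 3.89). Within the Ankrd1-led cluster, which both libraries shared, 4 members met the minimum of UMIs, with 0 higher and 1 lower in FA, where 20.8% of 9515 genes were higher and 42.4% lower. The member called lower there was Ppara, whose direction differed from that over the class. It stood at 9.13 CPM in FA and 17.0 CPM in control, from 7 and 20 UMIs. Its ratio was 0.536 (0.192 to 1.32), an interval that includes 1. Acot1 was lower in FA at both levels. Over the class it stood at 72.8 CPM in FA and 109.8 CPM in control, a ratio of 0.663 (0.543 to 0.813) that was called. Within the cluster its ratio of 0.667 (0.480 to 0.917) fell just short of a call.

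The unnamed cluster led by Fabp1 set the members apart from each other. Compared with FA proximal tubule-like cells, 2 members were higher and 5 lower there, where 36.9% of 10749 genes were higher and 36.2% lower. Acot1 stood at 283 CPM in this cluster and 56.3 CPM in proximal tubule-like cells, a ratio of 5.03 (4.14 to 6.16), and Fabp1, which leads the cluster, at 193 CPM in this cluster and 93.2 CPM in proximal tubule-like cells. Ehhadh stood at 80.7 CPM in this cluster, a ratio of 1.34 (1.08 to 1.67). Cyp4a10 stood at 52.8 CPM in this cluster, a ratio of 0.135, and Cyp4a14 at 25.6 CPM, a ratio of 0.0615. So Acot1 and Fabp1 were highest in FA where the omega hydroxylases were low. Ppara stood at 44.9 CPM, Ppargc1a at 35.1 CPM and Cpt1a at 74.1 CPM there. Of 19 measured genes of mitochondrial beta oxidation 15 were higher and 2 lower in this cluster than in FA proximal tubule-like cells. The defining transporters were low: Slc34a1 stood at 230 CPM and Lrp2 at 117 CPM, and 14 of 15 proximal tubule transporters and enzymes were lower. These are the markers that named the proximal tubule-like class, which favours this direction. In the unnamed cluster led by Spp1 the omega hydroxylases parted. Cyp4a10 stood at 466 CPM there and 390.3 CPM in FA proximal tubule-like cells, a ratio of 1.19 (1.08 to 1.32), and Cyp4a14 at 191 CPM there and 416 CPM in FA proximal tubule-like cells, a ratio of 0.459. Acot1 stood at 87.4 CPM and Fabp1 at 76.8 CPM there. Of the 8 members 1, Acot1, was called higher and 3 lower than in FA proximal tubule-like cells, where 11.5% of 9786 genes were higher and 47.2% lower. Slc34a1 stood at 2412 CPM in this cluster, while mitochondrially encoded RNA took 30.8% of its UMIs, against 3.56% in the Fabp1-led cluster and 17.2% in FA proximal tubule-like cells.

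The order of each gene over the named classes was compared between the libraries, over 12 further classes in which both libraries had at least 50 cells. By the 1.5-fold rule the share of all measured genes called higher in FA was 18.8% in B cell-like, 16.0% in T cell-like, 24.3% in dendritic-like, 12.4% in distal convoluted tubule-like, 16.4% in endothelial-like, 26.4% in intercalated cell-like, 26.0% in macrophage-like, 16.9% in monocyte-like, 47.2% in plasma cell-like, 11.8% in urothelial-like, 11.8% in stromal-like and 13.8% in podocyte-like cells. The share called lower was between 7.44% in plasma cell-like and 35.9% in distal convoluted tubule-like cells, with 14.4% in B cell-like, 17.1% in T cell-like, 16.5% in dendritic-like, 20.6% in endothelial-like, 25.6% in intercalated cell-like, 21.2% in macrophage-like, 23.1% in monocyte-like, 18.6% in urothelial-like, 25.3% in stromal-like and 12.4% in podocyte-like cells. Ppara was highest in proximal tubule-like cells in both libraries. The next classes were injured tubule-like at 41.0 CPM and urothelial-like at 10.8 CPM in FA, and urothelial-like at 22.7 CPM and injured tubule-like at 17.3 CPM in control. Ehhadh was also highest in proximal tubule-like cells in both libraries. The class after it was injured tubule-like in FA, at 35.7 CPM, and thick ascending limb-like in control, at 18.9 CPM.

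In control Ppargc1a was highest in tubule segments beyond the proximal tubule. In FA it stood at 130 CPM (72.5 to 214) in thick ascending limb-like, 91.7 CPM in proximal tubule-like, 72.6 CPM (42.3 to 116) in distal convoluted tubule-like and 62.0 CPM in intercalated cell-like cells, an order whose neighbours overlap in their intervals. In control it stood at 339 CPM (301 to 381) in thick ascending limb-like, 276 CPM in distal convoluted tubule-like, 203 CPM in intercalated cell-like and 106 CPM in proximal tubule-like cells. Its ratio of FA to control was 0.263 (0.152 to 0.425) in distal convoluted tubule-like and 0.305 (0.190 to 0.469) in intercalated cell-like cells, against 0.868 (0.742 to 1.01) in proximal tubule-like cells. The distal classes were small in FA, with 30 thick ascending limb-like cells there and 105 in control.

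Cpt1a was the most widely expressed member and was called higher in FA in 10 of the 12 further classes. In T cell-like cells it stood at 38.6 CPM in FA and 10.2 CPM in control, a ratio of 3.79 (2.24 to 6.91), in stromal-like cells at 68.3 CPM in FA and 25.2 CPM in control, and in macrophage-like cells at 39.0 CPM in FA and 20.8 CPM in control, a ratio of 1.87 (1.495 to 2.37). For plasma cell-like cells the interval included 1, at 1.75 (0.789 to 4.06). Distal convoluted tubule-like cells went the other way, at 137 CPM in FA and 228 CPM in control, a ratio of 0.600 (0.406 to 0.859). Lymphocytes, which are the B, T and NK cell-like cells pooled, were taken as a gauge of free RNA in the droplets. They had 40.4 CPM of Cpt1a in FA and 11.9 CPM in control. T cell-like cells supplied 193 of the 298 Cpt1a UMIs of FA lymphocytes, so the gauge cannot judge them. Macrophage-like cells of FA were near the gauge in Cpt1a. Their summed proximal tubule markers stood at 62.0 CPM, against 196 CPM in FA lymphocytes. The part of free RNA in the Cpt1a calls of these classes was not tested. Proximal tubule-like cells of FA exceeded FA lymphocytes 4.22-fold.

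Acot1 was measured in 6 of the 12 classes and called higher in FA in all 6. This count was favoured by the minimum of 20 UMIs over both libraries. T cell-like and monocyte-like cells had 1 control UMI each, macrophage-like cells 5 and podocyte-like cells 7, so they met it through FA. Endothelial-like cells, with 37 control UMIs, and urothelial-like cells, with 54, met it in control alone. In macrophage-like cells it stood at 3.51 CPM in FA, below the FA lymphocyte level of 9.35 CPM. T cell-like cells, at 10.4 CPM in FA, supplied 52 of the 69 UMIs behind that level, so it cannot judge them. In urothelial-like cells it stood at 117 CPM in FA and 38.3 CPM in control, a ratio of 3.06 (2.26 to 4.22), and this was its highest level of any named class in FA. In podocyte-like cells it stood at 28.5 CPM in FA and 7.46 CPM in control. In control the highest level was in injured tubule-like cells, at 109.8 CPM. The control lymphocyte level was 0.456 CPM. Cyp4a10, Cyp4a14 and Fabp1 outside the tubule stayed near or below the lymphocyte level. In lymphocytes Cyp4a10 stood at 10.3 CPM in FA and 0.912 CPM in control, Cyp4a14 at 6.37 CPM in FA and 0.456 CPM in control, and Fabp1 at 11.8 CPM in FA and 0.456 CPM in control. In FA macrophage-like cells these 3 genes were below the FA lymphocyte level. T cell-like cells are part of that gauge, and the part of free RNA in the calls of both classes was not tested. FA proximal tubule-like cells exceeded FA lymphocytes 37.9-fold in Cyp4a10, 65.4-fold in Cyp4a14 and 7.91-fold in Fabp1. FA injured tubule-like cells exceeded them 1.70-fold in Fabp1.

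**Figure D4:**
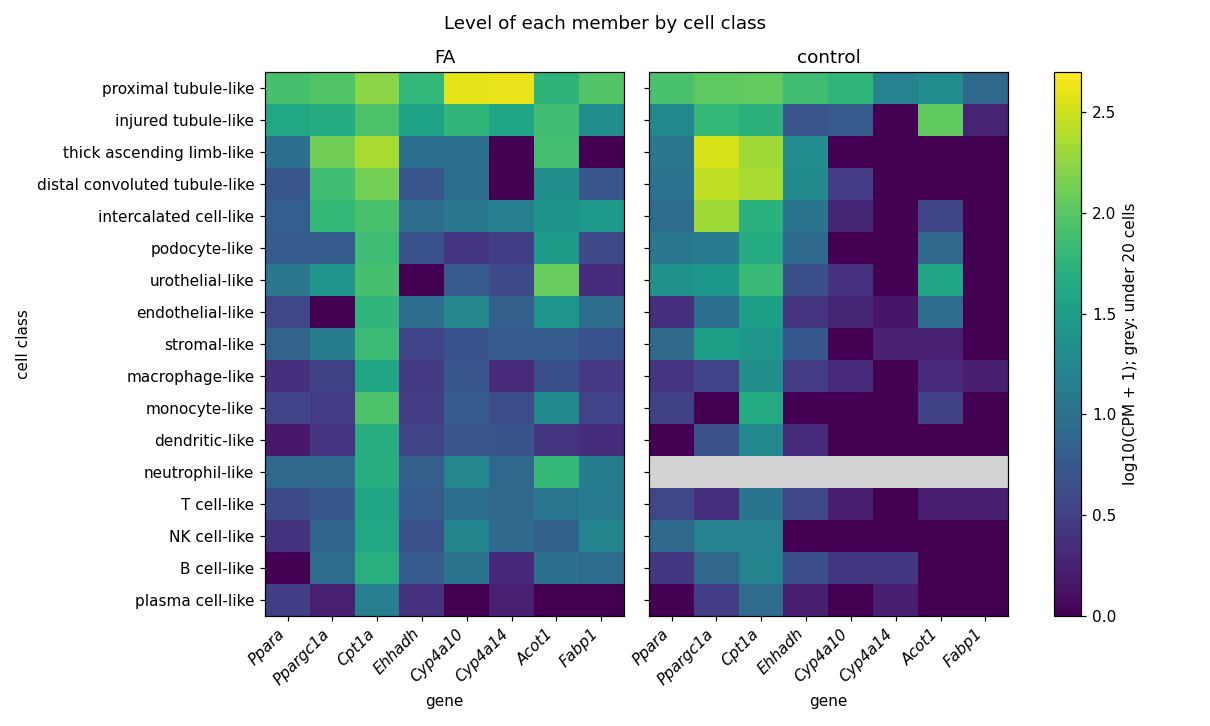
Level of each member as log10(CPM + 1) (colour) over the named cell classes, with FA on the left and control on the right; grey marks a class with under 20 cells. Cpt1a is spread over nearly every class, whereas Cyp4a10 reaches 390.3 CPM in FA and 59.4 CPM in control proximal tubule-like cells and 58.7 CPM in FA injured tubule-like cells.

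The wider pathway did not share one direction in proximal tubule-like cells, where 32.3% of all measured genes were higher and 23.7% lower. Among 29 measured further PPAR-alpha targets 13 were higher and 6 lower in FA than in control, at a median log2 ratio of 0.37. Plin2, a coat protein of lipid droplets, stood at 146 CPM in FA and 71.6 CPM in control. Omega oxidation and thioesterase genes had 7 higher and 3 lower of 16. Genes of lipid synthesis and droplets had 12 higher and 3 lower of 21, among them G0s2, an inhibitor of the lipase ATGL, at 314 CPM in FA and 84.3 CPM in control.

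The enzymes of mitochondrial beta oxidation themselves went the other way, with 0 higher and 11 lower of 19, at a median log2 ratio of -1.07. Acadm, the medium-chain acyl-CoA dehydrogenase, stood at 164 CPM in FA and 345 CPM in control, a ratio of 0.475. Acaa2, the thiolase, stood at 165 CPM in FA and 458 CPM in control, and Hadh at 125 CPM in FA and 409.8 CPM in control. Peroxisomal genes had 3 higher and 12 lower of 22. Cat, which encodes catalase, stood at 169 CPM in FA and 599 CPM in control, a ratio of 0.283. Uptake, activation and carnitine shuttle genes had 6 higher and 8 lower of 20, ketone body enzymes 1 higher and 4 lower of 5, and genes of mitochondrial biogenesis and energy sensing 1 higher and 5 lower of 15. PPAR partners and coregulators had 5 higher and 3 lower of 16, and the shares called higher among these and the uptake genes were near that of all genes. Hnf4a, a nuclear receptor that maintains the proximal tubule, stood at 145 CPM in FA and 325 CPM in control, a ratio of 0.446. Proximal tubule transporters and enzymes without a lipid role had 6 higher and 2 lower of 15, at a median log2 ratio of 0.33. They are the markers that named this class in both libraries. Slc7a13, at 158 CPM in control and with no UMI in the FA class, is not among the 15. The split held in part against the Slc6a19-led control cluster alone, where beta oxidation had 3 higher and 10 lower of 19 and further targets 19 higher and 4 lower of 29, with 29.6% of all genes higher and 19.5% lower. Against the Kap-led cluster the further targets had 8 higher and 14 lower of 28, with 34.2% of all genes higher and 23.5% lower. Malat1 content differed in these comparisons as given above, and in the low-Malat1 comparison beta oxidation had 0 higher and 13 lower of 19, where 60.9% of all genes were lower, so this count is near that of all genes.

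**Figure D5:**
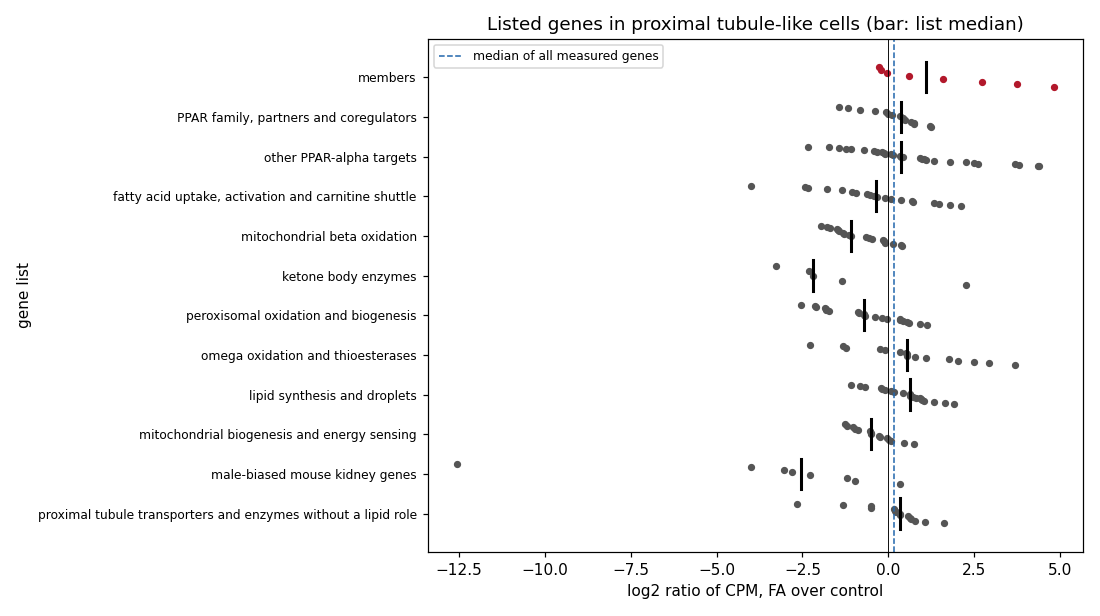
Log2 ratio of CPM, FA over control, of each listed gene in proximal tubule-like cells, by gene list, with the list median as a bar and the median of all measured genes as a dashed line. The members have a median of 1.10 and mitochondrial beta oxidation a median of -1.07, against 0.16 for all genes.

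Genes most like 7 of the members over 31 profiles (a named class in 1 library each) are given as a description, and the profiles share their library and depth. By Pearson correlation of log2(CPM + 10), Ppara was most like Prodh (r = 0.94), Armh4 and Gldc, and Ehhadh most like Gm17753 (r = 0.93), Gcdh and 0610005C13Rik. Ppargc1a was most like Mccc2 (r = 0.95), Gm43605 and Wnk4, a kinase of the distal tubule. Cyp4a10 was most like Slc22a12 (r = 0.96), a urate transporter, and Cyp4a14 most like Gm44708 (r = 0.95) and Ugt2a3. Acot1 was most like 2200002D01Rik (r = 0.83), and Fabp1 most like Fga (r = 0.93) and Fgg, which encode chains of fibrinogen. Among the pairs of members, r was highest for Cyp4a10 with Cyp4a14 (0.94), followed by Cyp4a14 with Fabp1 (0.90) and Cyp4a10 with Fabp1 (0.89). Next was Ppara with Ehhadh (0.86), and r was lowest for Ppargc1a with Fabp1 (0.17). These r values leave out all unnamed cells. The unnamed cluster led by Fabp1 held 53.6% of the FA UMIs of Fabp1. There Fabp1 stood at 193 CPM, Cyp4a10 at 52.8 CPM and Cyp4a14 at 25.6 CPM. In the unnamed cluster led by Spp1 they stood at 76.8 CPM, 466 CPM and 191 CPM in that order. Likeness with these clusters included was not tested.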

How the data were processed

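Single-cell RNA was measured in 1 FA and 1 control kidney library. The authors deposited 1 matrix of whole-number UMI counts, 21855 gene names by 28678 barcodes, with no column left unused. The submitters' processing notes name Seurat and mm10; the sources used here do not name the aligner or counting tool. Each barcode's prefix gave its library, and the prefix beginning with C was read as control, which rests on that letter alone.

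The 8 members, the lists and the tests were chosen with earlier results of these data known. In the deposited counts 230 pairs of names were joined through RefSeq synonyms, since 2543 names occurred in FA only and 1255 in control only, and none of the listed genes needed joining. Barcodes passed at a minimum of 200 genes and 500 UMIs, if mitochondrial UMIs were at most 50%. Doublets were scored against simulated pairs, and the top 0.8% per 1000 barcodes were left out, 2420 in FA and 488 in control. Clusters used 2000 variable genes without the members, listed lipid, mitochondrial or sex-linked genes, 30 principal components, 20 neighbours and Leiden at resolution 1 (leidenalg 0.10.2, scikit-learn 1.9.0, Python 3.11.15). A name needed at least 3 detected markers. UMIs were summed per class and library. Intervals are exact Poisson for levels, exact conditional binomial for ratios and Clopper-Pearson for shares (scipy 1.17.1). A call is 1.5-fold with at least 20 UMIs, and the floor is 3 counts. A gene with no UMI throughout a library was not counted as measured, so complete losses are missing from the counts and shares called. From each list the 4 genes with the highest mean CPM in proximal tubule-like cells could be named, and for each member the 3 most like it. Markers of the classes are named where a label is checked, and Havcr1 and Krt20 beside the results they touch; Malat1 was chosen after the values of the clusters were seen. The steps were tested on simulated data. A few results on genes withheld for evaluation are not reported here.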

Additional observations from a re-analysis of the deposited data

Results flagged for a closer look

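For 3 members FA was called higher than control by 1.5-fold or more in 1 cell class and lower in another, each with an interval that excludes 1; in each case the difference between the classes was not tested. Ppara had a log2 ratio of 1.24 in injured tubule-like cells, which different clusters held in the 2 libraries, and -1.07 in urothelial-like cells. Cpt1a had a log2 ratio of 1.92 in T cell-like cells and -0.74 in distal convoluted tubule-like cells. It stood at 38.6 CPM in FA T cell-like cells, which are part of the lymphocyte gauge of free RNA at 40.4 CPM. Acot1 had a log2 ratio of 3.94 in T cell-like cells and -0.59 in injured tubule-like cells. The T cell-like ratio came from 10.4 CPM in FA and 0.678 CPM in control, with 1 control UMI. T cell-like cells supplied most FA lymphocyte UMIs of Cpt1a and Acot1, so that gauge cannot judge them. The part of free RNA in these values was not tested.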

How the results depend on the processing

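Under the alternative settings no result changed direction among those called. This does not cover the comparisons of single clusters. Acot1 was called higher in proximal tubule-like cells but went the other way, without a call, against the Kap-led control cluster. Ppara was called higher over the injured tubule-like class and lower within the Ankrd1-led cluster, from few UMIs. In proximal tubule-like cells 2 members were called lower under the marker gate and 2 with the unnamed cluster led by Spp1 added, against 0 as reported. The median log2 ratio of all measured genes was 0.11 under the marker gate and -0.13 with that cluster added. For injured over proximal tubule-like cells of FA, 1 member was called higher at Leiden resolution 2, against 0 as reported, and 4 were called lower at a 2-fold limit and 4 with the widened class, against 7 as reported. The median over all measured genes was 0.54 with the widened class, against 0.24 as reported. The shares of all genes called are not given for these settings, so the counts cannot be set against them. A further 3 settings left too few FA proximal tubule-like cells for the class comparisons: at most 20% mitochondrial UMIs (3 cells), doublets kept (12 cells) and resolution 0.5 (12 cells). In the whole library at most 20% mitochondrial UMIs gave a log2 ratio of 0.40 for Cyp4a10, against 0.75 as reported. Without the control cluster led by Ass1 it was 2.40 for Cyp4a10 and 4.49 for Cyp4a14 in proximal tubule-like cells. Setting the median of all genes to 0 shifts log2 ratios by 0.16 there and by 0.24 between injured and proximal tubule-like cells. The widened class, the Vcam1-led, single control cluster and low-Malat1 comparisons were chosen after seeing the data. No paired analysis was possible because the groups share only replicate number 1, with 1 library each, and for the same reason no replicate could be left out. Depth limits members with few UMIs, such as Fabp1 in control.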

Other observations

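Barcodes with over 50% mitochondrial UMIs were left out of the comparisons. Over all barcodes, 15.7% in FA and 34.9% in control exceeded this limit. Those that also met the minimum of genes and UMIs numbered 2000 in FA and 1304 in control. In CPM of UMIs without mitochondrially encoded genes, they held Cyp4a10 at 369 in FA and 76.3 in control, Cyp4a14 at 194.5 in FA and 16.1 in control, Fabp1 at 95.1 in FA and 3.51 in control, and Acot1 at 89.8 in FA and 9.03 in control. Ppara stood at 53.4 in FA and 68.2 in control, Ppargc1a at 43.8 in FA and 123 in control, Cpt1a at 131 in FA and 121 in control, and Ehhadh at 73.7 in FA and 68.2 in control.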
